A study of Mus musculus with 72 samples.

Results

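Joining of a Cas9 break on mouse chromosome 14 was compared between neural progenitor cells under replication stress and solvent-treated cells. The comparison rests on 7 of the 72 samples of the series, chosen by their labels as the parental cells of the promoter/enhancer deletion collection that carried the chr14 bait: 4 libraries with DMSO and 3 with aphidicolin. Together they hold 54731 junctions. All 7 come from the line Nxp010, neural progenitors derived from embryonic stem cells, with the genotype NestinCre+ Xrcc4-/- p53-/-, so the controls lack Xrcc4 and p53 as well. Aphidicolin was given at 0.5 µM for 72 h and then at 0.25 µM for 24 h, and the control cells received DMSO. No label says whether libraries of a group came from separate cultures, so the tests below measure the spread between libraries, which may be technical.

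Aphidicolin inhibits the replicative DNA polymerases and slows replication forks, and at low doses it leaves long, late-replicating genes prone to breakage. Xrcc4 acts with DNA ligase IV in the last step of non-homologous end joining (NHEJ), the main repair pathway of double-strand breaks (DSBs). Without it, ends are joined by alternative pathways that often trim the ends and pair short stretches of matching bases (micro-homology) before ligation. In LAM-HTGTS, a sequencing assay of DSB joining, a primer next to a Cas9 break (the bait) reads across the joint into whatever end it was joined to (the prey). The assay therefore counts ends that were joined and recovered, not breaks. Recurrent DNA-break clusters (RDCs) are long genes in which such preys gather. The list used here holds 42 RDCs of constant-timing regions (CTR), which replicate late, and 65 of timing-transition regions (TTR), where replication moves from early to late domains. That list was drawn up from aphidicolin-treated cells of this kind, so a higher density in it is not independent evidence.

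The guide lies on the plus strand of GRCm38/mm10 at chr14:83268830-83268849, in no annotated gene. It is shown with its PAM, since Cas9 cuts between bases 83268846 and 83268847 and the recurrent bait ends and guide-like sites described later are read against it. Capitals mark the 3 guide bases past the cut.

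guide and PAM: ggcttagttatagtaggGGCtgg

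The primer lies upstream of the cut, and the bait runs for 164 bases from the primer start to the cut. It is printed because bases missing from its right end measure how far the bait end was trimmed. Capitals mark the last base left at 5 ends away from the cut at which translocations piled up. They had 90, 82, 81, 80 and 44 bases lost, from left to right.

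bait, chr14:83268683-83268846, plus strand: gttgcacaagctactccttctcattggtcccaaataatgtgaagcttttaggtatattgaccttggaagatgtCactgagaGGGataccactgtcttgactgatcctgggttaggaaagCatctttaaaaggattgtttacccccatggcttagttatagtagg

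Library sizes were even with 1 exception. The 3 other DMSO libraries held 8329, 9758 and 8874 junctions and the aphidicolin libraries 7568 to 10266, while DMSO replicate 2 held 1140. That library also stood apart from the other DMSO libraries in several shares, and results that depend on it are given with and without it. Read names place 6 of the libraries on one sequencing run and aphidicolin replicate 3 on another. Of 7951 distinct prey positions and strands among the translocations, 61 occurred in 2 or more libraries.

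Under aphidicolin a larger part of the joints left the neighbourhood of the break. Junctions on other chromosomes, called translocations here, made up 11%, 12%, 8.19% and 7.88% of the placed junctions in the DMSO libraries, against 19.3%, 20.7% and 25.4% with aphidicolin. Their mean was 2.23 times higher (9.78% ± 2.06, SD, n = 4, to 21.8% ± 3.21, n = 3; two-sided exact permutation test over libraries, p = 0.0571). With 4 against 3 libraries there are 35 arrangements and 0.0571 is the smallest p they allow, so no single comparison of this kind can pass 0.05; adjusted over the 7 classes it is 0.0667. The 95% Wilson intervals of single libraries, which cover counting error only since the reads carry no molecular identifiers, spanned at most 10.3% to 14%, in DMSO replicate 2.

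Junctions on chr14 itself more than 1 Mb from the break were scarcer and moved further. They took 1.95%, 1.49%, 1.80% and 1.59% of placed junctions with DMSO and 5.65%, 6.14% and 7.87% with aphidicolin, 3.84 times more on average. Both classes were thus higher in every aphidicolin library than in any DMSO library.

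Short deletions took a correspondingly smaller part of the junctions. Junctions past the break in the orientation of the bait, which join both sides of the same break after loss of the bases between, were the most frequent product of both treatments. Deletions under 200 bp made up 20.3%, 37.1%, 20.9% and 22.2% with DMSO and 15.3%, 13.8% and 14.4% with aphidicolin. The difference was -10.6 percentage points, -6.62 without DMSO replicate 2 and -4.87 with each position and strand counted once per library. First occurrences made up 47.6% to 56.7% of all junctions in the DMSO and 69.0% to 71.0% in the aphidicolin libraries. Those of 200 bp to 10 kb made up 45.8% ± 5.35 (SD, n = 4) and 29.7% ± 4.67 (n = 3). Both were lower in every aphidicolin library, although as a share of junctions within 1 Mb the longer ones overlapped (a difference of -10.3 points, exact permutation p = 0.114), but deletions of 10 kb to 1 Mb went the other way, from 0.491% ± 0.0801 to 1.45% ± 0.119. Each of these 3 differences had an exact permutation p of 0.0571 and an adjusted p of 0.0667.

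**Figure D1:**
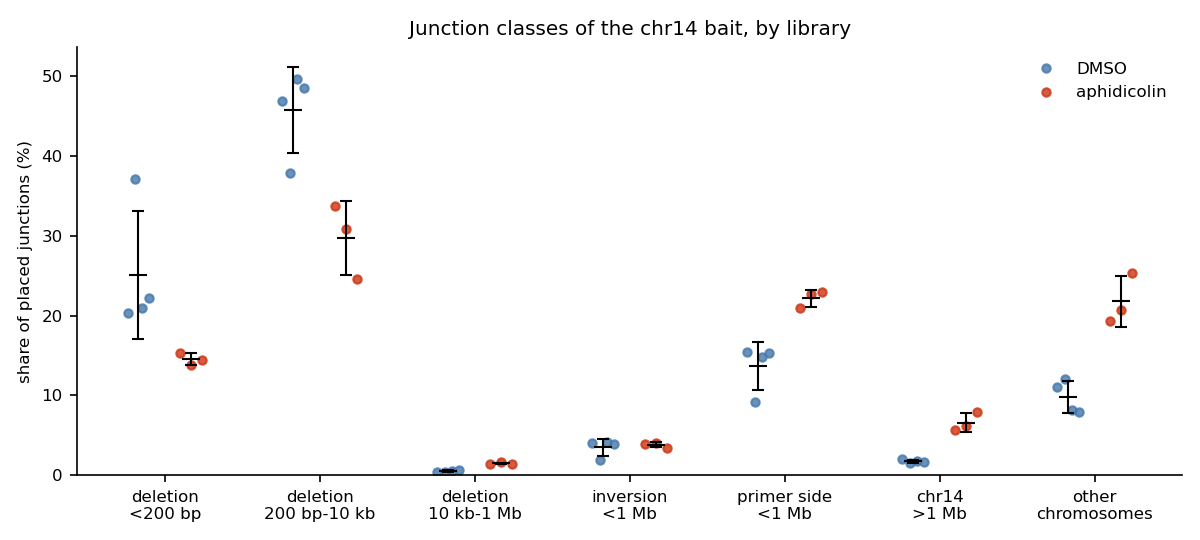
Share of placed junctions (%) in 7 classes for each library, DMSO in blue and aphidicolin in red, with black bars for mean ± SD. Other chromosomes, chr14 beyond 1 Mb, the primer side and deletions of 10 kb to 1 Mb were higher in all 3 aphidicolin libraries, short deletions lower, and inversions overlapped (1.84% to 4.14% with DMSO).

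Distance and orientation separated the joints within 1 Mb more finely. The primer side was divided from the side past the break, the bait orientation from the inverted one, and 4 ranges of distance were set, which gave 16 strata. Between 10 and 100 kb on the primer side, inverted junctions numbered 17, 3, 29 and 26 with DMSO and 148, 248 and 222 with aphidicolin. These were 0.264% ± 0.0429 (SD, n = 4) against 2.30% ± 0.302 (n = 3) of placed junctions, 8.70 times more, the largest ratio of the 16. The same orientation at 100 kb to 1 Mb was 7.35 times higher. Nearer than 200 bp on that side it was not, with 2.91% against 2.75% and overlapping libraries.

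Past the break the pattern depended on distance too. Inverted junctions of 10 to 100 kb went from 10 to 56 (7.87 times by share) and those of 100 kb to 1 Mb from 12 to 48 (5.32 times), while those under 200 bp were 0.537 times as frequent with aphidicolin (1.18% to 0.634%). In the bait orientation the ratio was 2.68 at 10 to 100 kb and 4.09 at 100 kb to 1 Mb. On the primer side in bait orientation, junctions of 100 kb to 1 Mb numbered 18 with DMSO and 121 with aphidicolin, 6.42 times more by share. All 8 strata beyond 10 kb thus had a higher mean share with aphidicolin. In 7 of them every aphidicolin library was above every DMSO library (exact permutation p = 0.0571, adjusted over the 16 strata 0.0761). The exception was the bait orientation on the primer side at 10 to 100 kb, where the treatments overlapped (0.15% and 0.273%, adjusted p = 0.140).

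Inversions within 1 Mb as one class hid these opposite moves. Their share was 3.46% ± 1.08 with DMSO and 3.78% ± 0.315 with aphidicolin, with overlapping libraries (exact permutation p = 0.971). Taken as a share of junctions within 1 Mb alone, inversions were 1.38 percentage points higher with aphidicolin, without overlap (exact permutation p = 0.0571). Without DMSO replicate 2, which had 1.84%, the mean was 0.215 percentage points lower with aphidicolin. The whole primer side took 15.4%, 9.13%, 14.8% and 15.3% with DMSO and 20.9%, 22.7% and 22.9% with aphidicolin.

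**Figure D2:**
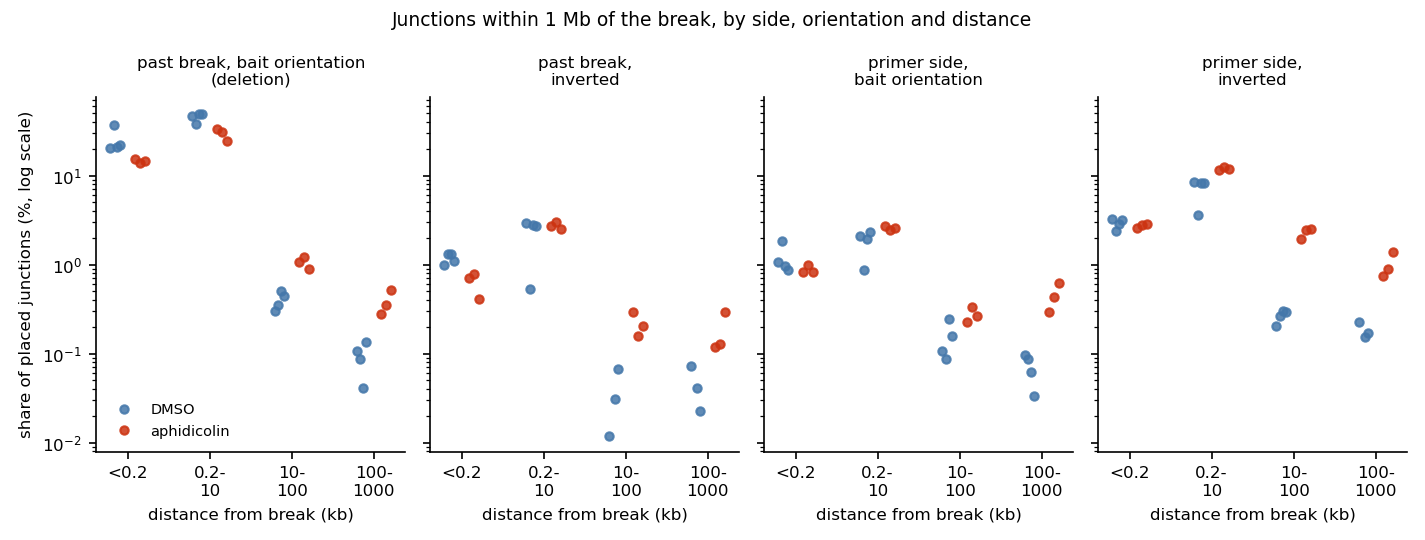
Share of placed junctions (%, log scale) within 1 Mb of the break for each library, by side, orientation and distance in kb; libraries at 0 are not drawn. The widest separation is that of inverted junctions on the primer side at 10 to 100 kb, with 0.204% to 0.297% in DMSO and 1.96% to 2.53% in aphidicolin.

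A bait on chromosome 8 in Xrcc4/p53-deficient cells of another collection of the series, with 3 libraries per treatment and its own controls, gave similar numbers. There the share on other chromosomes was 6.49% to 7.02% with DMSO and 17.1% to 18.5% with aphidicolin, that beyond 1 Mb on the bait chromosome 1.52% to 1.61% and 5.49% to 6.15%, and that on the primer side 13.5% to 14.4% and 21.6% to 23.6%. Whether the size of these shifts differed between the baits was not tested.

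Along chr14 beyond 1 Mb, the added junctions fell both inside and outside RDCs. The 6 RDC windows of 1 Mb held 18, 2, 8 and 11 junctions with DMSO and 135, 211 and 147 with aphidicolin, which is 0.149% and 1.84% of placed junctions, 12.3 times more. Outside them the share went from 1.56% ± 0.203 to 4.71% ± 1.29, 3.03 times more. As a part of all chr14 junctions beyond 1 Mb, the 6 windows held 11.1%, 11.8%, 4.55% and 7.80% with DMSO and 31.6%, 33.5% and 21.2% with aphidicolin. All 3 comparisons had an exact permutation p of 0.0571.

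The side of the break toward which these junctions fell did not differ detectably. Of the chr14 junctions beyond 1 Mb, 62.2% ± 7.0 (DMSO) and 62.8% ± 2.64 (aphidicolin) lay on the primer side, which faces the centromere. The part on the strand of the bait was 43.8% and 50.7%, and that within 5 Mb of the break 13% and 14.3%, again overlapping. From 5 to 20 Mb it was lower with aphidicolin in every library, 33.4% ± 5.16 against 27.3% ± 1.13.

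The RDCs Gpc6, Pcdh9 and Nrg3 rose in the fit across chr14 windows, and all 3 are CTR RDCs, although the call of each was lost without DMSO replicate 3. Pcdh9 also lost its call in windows of 2 Mb (voom, adjusted p = 0.122) and with the replicate number as a block (0.205), and Pcdh9 and Gpc6 lost theirs in limma trend (adjusted p = 0.0545 at log2 differences of 4.66 and 3.91). Density on chr14 is given as junctions per 1000 chr14 junctions beyond 1 Mb per Mb. Gpc6, which encodes glypican 6, a heparan sulphate proteoglycan of the cell surface, held 2, 0, 2 and 2 junctions in its window with DMSO and 36, 53 and 36 with aphidicolin. Its density went from 9.47 ± 6.42 to 73.5 ± 18.6, 7.76 times higher (limma voom, adjusted p = 0.00219). Pcdh9, which encodes protocadherin 9, a homophilic adhesion protein of neurons, held 7, 0, 0 and 3 junctions and then 33, 60 and 32, a density of 16.1 ± 20.7 against 72.9 ± 24.8 (adjusted p = 0.00146). Nrg3, the gene of a neuregulin that signals through ERBB4, held 4, 0, 1 and 3 and then 45, 58 and 38 (adjusted p = 0.00146). The 3 genes span 877 to 1104 kb. No DMSO library reached the lowest aphidicolin library in any of them.

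These were the 3 windows called higher of 99 tested on chr14 (3.03%), at an adjusted p under 0.05, and none was called lower. Unadjusted voom p-values under 0.05 were found in 4 windows that were higher and 21 that were lower, against 4 and 8 by quasi-Poisson. The quasi-Poisson test called 3 higher and 1 lower (1.01%). Without DMSO replicate 3 no window was called, with adjusted p-values of 0.107 for Nrg3, 0.251 for Pcdh9 and 0.0806 for Gpc6. The fitted log2 differences were then 1.64, 1.06 and 2.08, against 2.21, 2.33 and 2.17 with all libraries.

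In this density every aphidicolin library lay above every DMSO library for 4 of the 6 RDCs, Erc2 besides these 3, and for 9 of all 116 chr14 windows (7.76%). The 3 TTR RDCs of chr14 had smaller ratios. Erc2, a scaffold of the presynaptic active zone, held 2, 0, 1 and 1 junctions and then 7, 12 and 9, a density of 6.28 ± 5.07 against 16.1 ± 3.03 with no overlap of libraries (adjusted p = 0.680). Ptprg, a receptor-type tyrosine phosphatase, held 2, 0, 2 and 2 and then 5, 7 and 13, a density of 9.47 against 13.9 (adjusted p = 0.882). Grid1, which encodes the delta-1 glutamate receptor, held 1, 2, 2 and 0 and then 9, 21 and 19 (adjusted p = 0.144). Its mean density was lower with aphidicolin (33.8 against 27.3), because 2 of the 17 junctions that DMSO replicate 2 had beyond 1 Mb lay there.

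Because chr14 junctions beyond 1 Mb were themselves more frequent, the same windows differed more when counted per 10000 placed junctions. On this scale Gpc6 went from 1.68 ± 1.13 to 46.7 ± 5.40, Pcdh9 from 2.95 ± 3.98 to 46.2 ± 11.2, Grid1 from 5.20 ± 8.28 to 18.0 ± 5.31 with overlapping libraries, Erc2 from 1.14 ± 0.985 to 10.4 ± 1.23 and Ptprg from 1.68 ± 1.13 to 9.41 ± 4.66. With Nrg3 left out, the mean density of the 5 other chr14 RDCs was 17.3, 23.5, 7.95 and 11.3 with DMSO and 42.2, 48.6 and 31.5 with aphidicolin, 2.71 times higher (exact permutation p = 0.0571).

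**Figure D3:**
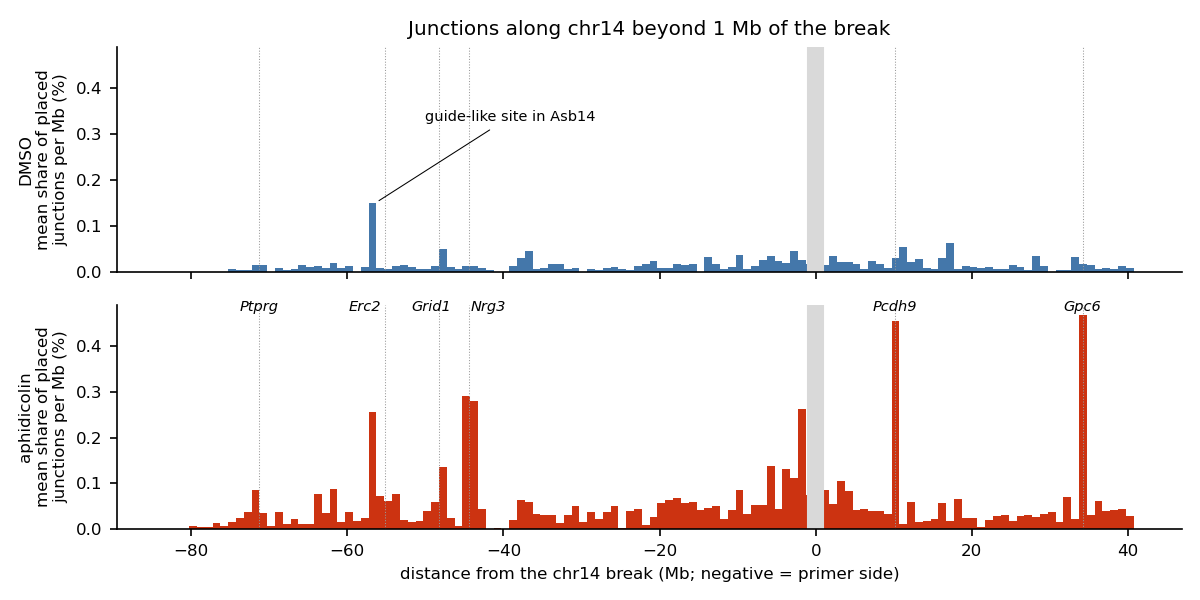
Mean share of placed junctions per Mb (%) along chr14, by distance from the break in Mb, for 4 DMSO (top) and 3 aphidicolin libraries (bottom); the grey band is the left-out 1 Mb on each side and dotted lines mark RDC centres. With aphidicolin the peaks at Nrg3, Pcdh9 and Gpc6 stand above a raised level, and the highest DMSO peak is the guide-like site in Asb14.

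The highest DMSO peak of chr14 was not an RDC. At chr14:26907274-26907296, in the gene Asb14, 30 DMSO and 44 aphidicolin junctions lay within 100 bp of the expected cut of a site that resembles the guide. The 2 further sites of this kind with 10 or more junctions within 50 bp lay on other chromosomes, at chr15:50778846-50778868 in Trps1 and at chr19:29363285-29363307 in Plgrkt. Each ends in an NGG PAM, and capitals mark the bases that differ from the guide. They are printed so that each can be laid against the guide.

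Asb14, chr14, minus strand: CAGttagAtatagtaAgggcagg

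Trps1, chr15, plus strand: TTTttagttatagtagAggcagg

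Plgrkt, chr19, plus strand: ATctAagCtatagtaggggctgg

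Counted from 1 at the 5′ end of the guide, with the base of the guide first, Asb14 differs by G1C, G2A, C3G, T8A and G16A, Trps1 by G1T, G2T, C3T and G17A, and Plgrkt by G1A, G2T, T5A and T8C. A match of at most 6 mismatches, searched in the same way, was found in 0 of 2413 windows taken at the centres of 1 Mb tiles. Junctions at Asb14 numbered 14.4, 0, 11.3 and 7.89 per 10000 placed junctions with DMSO and 10.6, 15.6 and 22.8 with aphidicolin, so the treatments overlapped (exact permutation p = 0.171). The Trps1 site (1.93 against 2.66) and the Plgrkt site (0.813 against 3.93) overlapped as well. In the per-window density the window of 1 Mb that holds the Asb14 site was the one the quasi-Poisson test called lower with aphidicolin.

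Off chr14, density is given per 1000 translocations per Mb, so that the larger number of translocations with aphidicolin does not enter. CTR RDC windows had a density of 0.279, 0.187, 0.321 and 0.514 with DMSO and 0.931, 1.45 and 0.722 with aphidicolin. The means were 0.325 ± 0.137 (SD, n = 4) and 1.03 ± 0.372 (n = 3), 3.18 times higher (exact permutation p = 0.0571). TTR RDC windows had 0.510, 0.118, 0.404 and 0.346 and then 0.83, 0.879 and 0.880, 2.51 times higher on average. In windows of 2 Mb the differences were 0.320 for CTR and 0.262 for TTR, against 0.708 and 0.518 in 1 Mb, again without overlap. In the 2403 tiles of 1 Mb outside RDC windows the density was 0.385 ± 0.00816 and 0.362 ± 0.00690.

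Relative to the tiles outside, the log2 ratio of CTR windows was -0.43, -1.08, -0.27 and 0.43 with DMSO and 1.35, 2.03 and 0.98 with aphidicolin, and that of TTR windows 0.44, -1.75, 0.06 and -0.14 with DMSO and 1.18, 1.31 and 1.26 with aphidicolin. The value of -1.75 is that of DMSO replicate 2 and rests on 1 junction. Every aphidicolin library thus exceeded the rest of the genome in both classes, while DMSO libraries lay on both sides of it, above it in replicate 4 for CTR and in replicates 1 and 3 for TTR. Without DMSO replicate 2 the difference between treatments was 1.13 for TTR and 1.54 for CTR, against 1.60 and 1.79 with it. For the RDCs shared with the chromosome 8 bait, the difference between treatments was 0.686 with the chr14 bait and 0.903 with the chr8 bait for CTR, and 0.504 and 0.371 for TTR. The differences between baits had exact permutation p-values of 0.683 and 0.649 over 700 arrangements.

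RDC by RDC, in a list that is not independent of this treatment, 36 of 39 CTR windows off chr14 had a higher mean density with aphidicolin and 3 a lower one. For TTR the numbers were 48 and 14 of 62. In 8 CTR and 8 TTR windows every aphidicolin library lay above every DMSO library, 15.8% of the RDC windows, while among all 2504 windows off chr14 this held for 103 (4.11%). The counts behind single windows were small, with 100 DMSO and 549 aphidicolin junctions in these RDCs, and 36 of them had no DMSO junction. The filter of 5 junctions was passed by 24 CTR and 34 TTR windows.

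No window off chr14 was called by limma voom at an adjusted p under 0.05 (0 of 601 tested, with 2 higher and 58 lower at an unadjusted p under 0.05). In windows with few junctions the voom difference could run against the mean density, so its lower windows are not read as decreases. Cadm2 had a mean density of 0.585 with DMSO and 0.998 with aphidicolin but a voom log2 difference of -1.03. The quasi-Poisson test called 1 (0.166%), the TTR RDC Auts2, with an adjusted p of 0.0419 and unadjusted counts of 40 higher and 26 lower. In data simulated at this depth, voom recovered 2.06% of windows changed 6-fold and 0% of those changed 3-fold. That simulation tested 784 windows against 601 here, so it is only a rough guide. In it voom missed most changes of that size in single windows. Translocations per chromosome gave no call for any of 19 chromosomes (voom, 1 higher and 1 lower at an unadjusted p under 0.05; 2 higher by quasi-Poisson).

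Only 3 RDCs off chr14 held 20 or more junctions. Auts2, a gene of neuronal development linked to autism, had no DMSO junction and 6, 8 and 13 with aphidicolin, at least 3.94-fold higher when 3 junctions over the DMSO libraries are taken as the limit of a count of 0. Naaladl2, a CTR RDC that encodes a protein related to N-acetylated alpha-linked acidic dipeptidases, had none and then 2, 14 and 4, at least 2.92-fold higher. Ptprt, a receptor tyrosine phosphatase of cell adhesion, had 1, 0, 1 and 0 and then 4, 9 and 6. The minimum of 20 junctions was reached through the aphidicolin libraries, so a difference in these 3 is in part fixed by the choice.

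Of 4 further long RDC genes, which were chosen with earlier results known, 3 did not overlap between treatments, against 15.8% of RDC windows and 4.11% of all windows off chr14. Ctnna2, the gene of alpha-N-catenin, which links cadherins to actin in neurons, had 0, 0, 1 and 0 junctions and then 5, 9 and 4. Magi2, a scaffold of the postsynaptic density, had none and then 4, 8 and 2. Lrp1b, a giant receptor of the LDL receptor family, had none and then 1, 5 and 1. Cadm2, an immunoglobulin adhesion molecule of axons, had 1, 0, 1 and 0 and then 3, 2 and 0, so the treatments overlapped.

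In the families given here most RDC genes had more junctions per 1000 translocations with aphidicolin, as did 84 of all RDCs off chr14 and 1243 of 2403 tiles outside. Receptor phosphatases off chr14 (Ptprd, Ptprk, Ptprm and Ptprt) held 2 DMSO and 30 aphidicolin junctions, with 4 of 4 windows higher. Cadherins and catenins held 4 and 47, with 6 of 6 higher and the most in Ctnna2 and Cdh13 (0, 0, 2 and 0, then 4, 9 and 4). The CSMD genes and Lrp1b, all giant membrane proteins, held 2 and 29 with 4 of 4 higher, and Csmd1 alone had none and then 2, 5 and 3. Adhesion G protein-coupled receptors held 0 and 15, at least 2.19-fold higher, with 4 of 4 higher and none free of overlap. Their members thus had few junctions each.

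Synaptic scaffolds and neurexin-system genes held 4 and 39 junctions, with 6 of 7 higher. Immunoglobulin adhesion and guidance genes held 9 and 39, with 4 of 7 higher, among them Sdk1 (0, 0, 1 and 0, then 4, 3 and 4). Transcription factor genes held 7 and 27 with 7 of 7 higher, fragile-site genes 3 and 34 with 5 of 5 higher, and the dystrophin complex 8 and 26 with 5 of 6 higher, where Dmd counts as 2 RDCs. Not every RDC gene followed: Grik2, a kainate receptor gene named after its values were seen, had 3, 0, 0 and 0 junctions with DMSO and none with aphidicolin. The mean densities of the libraries overlapped between treatments for the immunoglobulin, transcription factor, fragile-site and dystrophin families, and not for the 5 others. The median difference in density was 1.09 for the CSMD genes with Lrp1b, 0.833 for the phosphatases, 0.616 for the adhesion receptors, 0.598 for the scaffolds and 0.537 for the cadherins. It was 0.413 for the immunoglobulin genes, 0.306 for transcription factors and for fragile-site genes and 0.302 for the dystrophin complex, against 0.447 over all RDCs off chr14 and 0.0333 over the tiles outside.

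Gene length told the treatments apart without use of the RDC list, although many listed RDC genes are over 500 kb. Genes over 500 kb held 6.54%, 5.84%, 7.76% and 5.87% of translocations with DMSO and 11.5%, 16.2% and 12.7% with aphidicolin (exact permutation p = 0.0571). Protein-coding genes over 1000 kb, which cover 2.98% of the placed genome, held 3.11% ± 0.873 and 7.15% ± 1.75, and those of 500 to 1000 kb, 4.07% of the genome, 3.39% ± 1.63 and 6.31% ± 0.665. Genes of 100 to 500 kb (19.5% and 18.4%) and under 100 kb (19.6% and 17.5%) overlapped. Within 2 kb of a transcription start site lay 4.60% ± 0.602 and 3.99% ± 0.465, also overlapping (exact permutation p = 0.229).

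Within RDC windows the preys were set apart by strand. In CTR windows off chr14 with aphidicolin, which held 236 preys, those on the plus strand had a median position 82.1 kb to the right of the window centre and the 129 on the minus strand one 121 kb to the left. The distance between both medians was 200.4, 218 and 168 kb in the 3 libraries. In TTR windows it was 176, 178 and 58.4 kb. With DMSO the TTR distances ran the other way, -76.1, -82.6 and -277 kb in replicates 1, 3 and 4, on 65 preys. In CTR windows with DMSO, 24 plus-strand and 11 minus-strand preys were found and the distances had no common sign (28.1, 374 and -128 kb in the 3 libraries with preys of both strands), and few preys stand behind each. On chr14 the CTR distances were 116, 147 and 129 kb with aphidicolin and 301, -147 and -385 kb in DMSO replicates 1, 3 and 4. The chr14 TTR distances over all libraries were 87.2 kb with aphidicolin and 275 kb with DMSO, on 11 plus-strand and 4 minus-strand DMSO preys, so with DMSO the sign differed between TTR windows on and off chr14.

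Trimming of the bait end went with the place of the prey. Within 1 Mb of the break the mean loss was 30.5, 36.7, 31.1 and 31.5 bases with DMSO and 31.1, 31.4 and 35.9 with aphidicolin, a difference of 0.390 (exact permutation p = 0.914). The medians there were 13 to 14 and 15 to 18 bases. Translocations lost more in both treatments, with means of 46.9, 59.0, 43.4 and 40.1 bases in the DMSO libraries and 53.4, 49.9 and 58.0 with aphidicolin. These overlapped, with 47.4 ± 8.23 against 53.7 ± 4.02 (exact permutation p = 0.286). Without DMSO replicate 2 they did not overlap, and the difference was 10.3 bases in place of 6.39 (exact permutation p = 0.10). The same difference was 3.98 without DMSO replicate 4 and 4.28 without aphidicolin replicate 3. Losses of 31 to 60 bases were more frequent with aphidicolin in every library, among translocations (12.6% to 16.9%), on chr14 beyond 1 Mb (9.85% to 16.7%) and within 1 Mb (11% to 14.3%). Near-intact ends, with 0 to 2 bases lost, made up 14.9% ± 0.718 within 1 Mb with DMSO and 11.7% ± 1.26 with aphidicolin, without overlap, and 9.18% and 6.94% of translocations, which overlapped. Without DMSO replicate 2 the latter difference was -4.08 percentage points in place of -2.24, without overlap, but it was -1.01 without DMSO replicate 4, -1.47 without aphidicolin replicate 3 and -1.54 without DMSO replicate 3.

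When translocations were split by bait loss, RDC density differed more between treatments among those with little loss. Among translocations that had lost at most 30 bases, the CTR density was 0.320, 0, 0.0663 and 0.726 with DMSO and 1.72, 2.56 and 1.34 with aphidicolin, 6.75 times higher on average. The DMSO values rest on only 5, 0, 1 and 10 junctions, most of them in replicate 4. Among those that had lost more, it was 0.248, 0.270, 0.560 and 0.296 and then 0.529, 0.745 and 0.412, 1.64 times higher with overlapping libraries (exact permutation p = 0.171). Here the DMSO values rest on 5, 1, 9 and 4 junctions. The density with little loss minus that with more loss was -0.0654 ± 0.404 with DMSO and 1.31 ± 0.456 with aphidicolin, without overlap (p = 0.0571 in the exact permutation test of this difference, which was chosen after its values were seen). For TTR windows the same difference was -0.0738 ± 0.210 and 0.642 ± 0.165. The means behind it were 0.302 and 1.28 with little loss and 0.376 and 0.634 with more.

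Long genes gave the same order, but many RDC genes are among them, so both results share junctions. Of translocations with at most 30 bases lost, 7.98% ± 1.1 lay in genes over 500 kb with DMSO and 19.9% ± 4.28 with aphidicolin, and of the others 5.54% ± 1.96 and 9.88% ± 0.957. In RDC windows off chr14 the mean loss with aphidicolin was 35.9, 30.4 and 42.6 bases in the 3 libraries, below the 53.4, 49.9 and 58.0 of all their translocations. With DMSO it was 35.1, 81.0, 55.3 and 38.6, below all translocations in replicates 1 and 4 and above them in replicates 2 and 3. On chr14 the loss in RDC windows was below that of all junctions beyond 1 Mb in both treatments, 11.7 against 27.2 bases with DMSO and 23 against 34.9 with aphidicolin, counted over all libraries of a treatment.

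**Figure D4:**
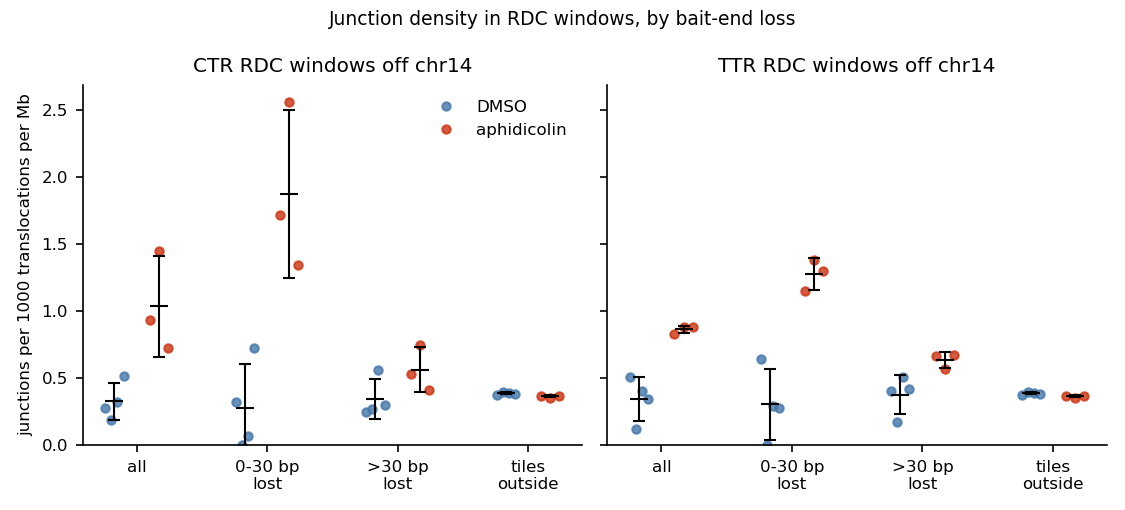
Junctions per 1000 translocations per Mb in CTR (left) and TTR windows (right) off chr14 for each library, for all translocations, those with at most 30 and over 30 bait bases lost, and, for all translocations, in tiles outside RDCs; black bars are mean ± SD. With at most 30 bases lost, aphidicolin libraries reach 1.34 to 2.56 in CTR windows and DMSO libraries 0 to 0.726.

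Away from the cut, bait ends of translocations piled up at a few bases. The 5 ends printed in capitals in the bait held 12.7% ± 4.69 (DMSO) and 13.6% ± 2.03 (aphidicolin) of translocations, but 1.89% and 2.05% of junctions within 1 Mb. These 5 were picked by their counts among translocations, with ends near the cut left aside. Their lower share within 1 Mb is thus in part fixed by the choice. For comparison, the end with 0 bases lost held 3.77% (DMSO) and 2.98% (aphidicolin) of translocations, and 3.37% and 2.34% of junctions within 1 Mb. The end with 81 bases lost alone held 292 translocations, joined to 289 distinct prey positions. Direct joining, without micro-homology, made up 54.4% of its joints, 51.3% with 82 and 52.6% with 90 bases lost, but 29.7% with 44 and 6.60% with 80. At all other ends it made up 15.7% ± 4.64 and 16.3% ± 0.764. The end with 82 bases lost was the one of the 5 that did not overlap between treatments (1.21% and 2.39% of translocations).

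**Figure D5:**
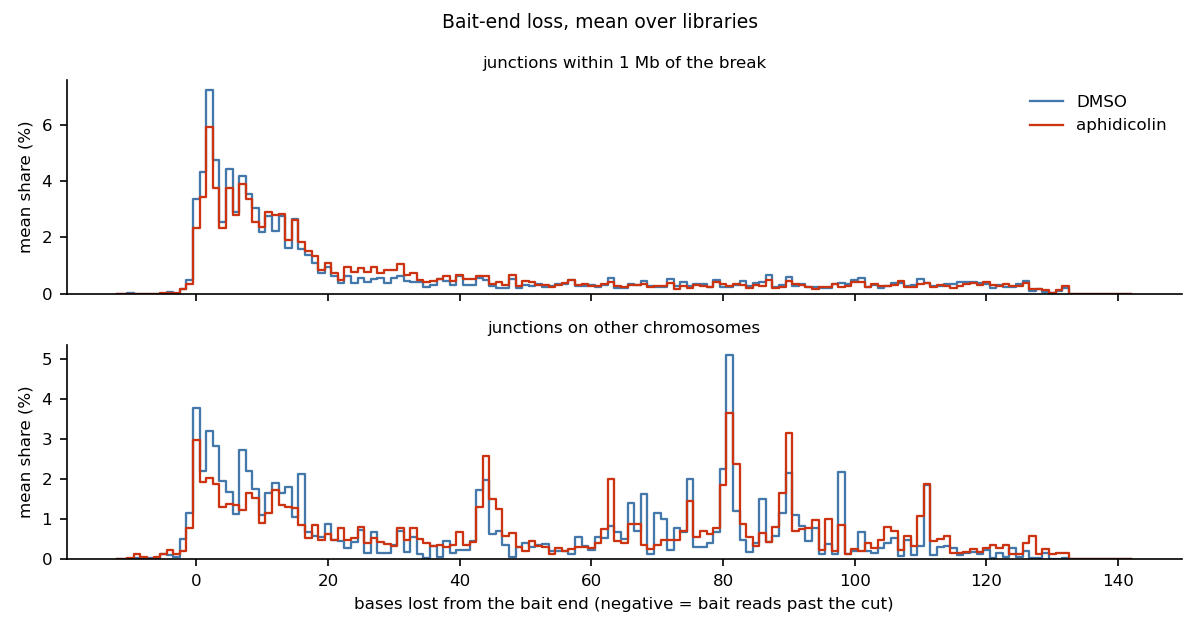
Mean share of junctions (%) by bases lost from the bait end, with DMSO (blue) and aphidicolin (red), for junctions within 1 Mb (top) and on other chromosomes (bottom). Near the break most ends lie within 30 bases of the cut (65.9% and 64.7%), whereas translocations show separate peaks such as those at 44, 81 and 90 bases lost.

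Part of these translocations carried preys of doubtful placement. In 416 of 8378 translocations G made up at least 60% of the first 60 prey bases, called G-run preys here. They made up 7.73%, 26.3%, 7.13% and 6.29% of translocations with DMSO and 4.04%, 4.93% and 1.97% with aphidicolin, 0.145% to 0.728% with the chr8 bait, and 0 of 44084 junctions within 1 Mb, and their origin was not tested. A further kind, 245 preys listed elsewhere, read the bases next to the break itself. Without both kinds, the CTR density still was 0.302 to 0.578 with DMSO and 0.756 to 1.55 with aphidicolin. Without the G-run preys alone, the share of translocations that had lost over 30 bases was 51.3% ± 5.52 with DMSO and 63.5% ± 3.52 with aphidicolin, which no longer overlapped. The mean loss still overlapped, with a difference of 9.10 bases without G-run preys (exact permutation p = 0.114) and 7.42 without both kinds (p = 0.286).

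One listed site shows the second kind. On chromosome 16, 84 junctions ended at or within 7 bases of 75718921, 40 with DMSO and 44 with aphidicolin, and 72 of them held preys that read the bases past the cut. The 40 bases found in 59 of these preys begin at the 26th base past the cut and are the capitals of the first sequence. The second is the listed site, and its capitals are the 4 bases at which it differs from them.

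past the cut, chr14:83268847-83268911, plus strand: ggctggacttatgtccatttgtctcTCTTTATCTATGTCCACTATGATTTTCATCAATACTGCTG

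listed site, chr16:75718882-75718921, minus strand: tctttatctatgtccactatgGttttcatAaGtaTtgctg

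The 59 preys that hold these 40 bases equal chr14 at every one of them, so their place on chromosome 16 is uncertain. All 84 junctions of the site numbered 13, 5, 10 and 12 in the DMSO and 11, 18 and 15 in the aphidicolin libraries.

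Whether micro-homology separated the treatments depended on single DMSO libraries. Among translocations with 0 to 10 bp, direct joints made up 17.5%, 41.3%, 16.5% and 15.9% with DMSO and 20.9%, 19.4% and 20.2% with aphidicolin. Their means were 22.8% ± 12.4 and 20.2% ± 0.751 (exact permutation p = 0.914). Joints with 2 bp made up 20.5% ± 6.60 and 20.1% ± 1.27, those with 3 to 4 bp 25.9% ± 5.82 and 26.1% ± 0.404, and those with 5 to 10 bp 15.1% ± 2.00 and 16.1% ± 1.64, all overlapping with all 7 libraries. Without DMSO replicate 2 the treatments no longer overlapped in 3 of these shares (exact permutation p = 0.10 for each, the smallest that 3 against 3 libraries allow). Direct joints were then 3.53 percentage points higher with aphidicolin, joints with 2 bp differed by -3.69 points (23.2% to 24.5% against 19.3% to 21.6%) and joints with 3 to 4 bp by -2.63 points. The mean length was 2.37 ± 0.262 and 2.47 ± 0.0560 bp. Of the single lengths, 9 bp was the one without overlap (0.321% and 1.07%).

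Nearer the break the direct joints were fewer, with 9.12% to 13.2% of junctions within 1 Mb in the DMSO and 10.1% to 11.9% in the aphidicolin libraries. On chr14 beyond 1 Mb they made up 13.3% ± 3.44 and 10.9% ± 0.656. Within the micro-homology classes, the CTR density of direct joints was 0.771 ± 0.359 with DMSO and 0.764 ± 0.257 with aphidicolin. That of joints with 1 to 2 bp was 0.287 and 1.24, and with 3 to 10 bp 0.224 and 0.914, both without overlap.

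Insertions, bases between bait and prey that align to neither, were less frequent among translocations with aphidicolin. They were found in 21.4%, 43.8%, 20.8% and 22.3% of DMSO and 15.4%, 16.2% and 14.6% of aphidicolin translocations (27.1% ± 11.2 and 15.4% ± 0.790, exact permutation p = 0.0571, adjusted over 6 measures 0.171). G-run preys made up 49.3% of the 582 insertions of 10 bp or more. Without them insertions were found in 18.7% ± 5.43 and 12.5% ± 0.434, again without overlap. The difference over all translocations was -11.6 percentage points, and -6.07 without DMSO replicate 2. On chr14 beyond 1 Mb they were found in 20.6% ± 10.1 and 17.3% ± 0.383, which overlapped (exact permutation p = 0.80). Within 1 Mb, where there were no such preys, they were found in 26.5%, 28.7%, 26.1% and 27.0% and in 23.4%, 22.9% and 21.9% of junctions.

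In the RDC windows off chr14, 17.9% of 549 aphidicolin junctions and 14% of 100 DMSO junctions held an insertion, counted over all libraries of a treatment. In those on chr14 it was 21.7% of 493 and 2.56% of 39. These differences were not tested. On the plus strand lay 51.4% ± 2.49 and 49.1% ± 1.19 of translocations, which overlapped (exact permutation p = 0.343). Without G-run preys the difference was -3.61 percentage points in place of -2.27, and without both kinds of doubtful prey -3.97, in both cases without overlap (exact permutation p = 0.0571).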

How the data were processed

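Per the labels the libraries hold genomic DNA of the line Nxp010, and the authors' notes name the build mm10. The authors trimmed and demultiplexed the reads with TranslocProcess, aligned them with Bowtie2, filtered them with TranslocWrapper and deposited 1 table per library with 1 junction per line, its prey position and the bait and prey limits in the read, raw and without normalization. From these deposited tables junctions were counted with Python 3.11.15, NumPy 2.4.6, pandas 2.3.3 and pysam 0.24.0. Repeated junctions of 1 position were kept. Junctions on unplaced sequences, at most 0.0877% per library, were left out. Micro-homology is the overlap of bait and prey in the read, an insertion the gap between them, and bait loss 164 bases minus the bait length. Gene positions came from a GENCODE annotation of the build, with RefSeq synonyms used to match older gene names. RDC names, positions and classes came from the study's supplement, which gives no extents, so windows of 1 Mb were centred on them. The authors' own comparisons were not used.

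Single values were compared with two-sided exact permutation tests over libraries (SciPy 1.17.1). Counts per window with 5 or more junctions were fitted with limma 3.58.1 (voom, R 4.3.3), with Benjamini-Hochberg adjustment over all windows and a threshold of 0.05, after a test on simulated data. Figures were drawn with Matplotlib 3.10.9. RDC families were counted without a test, and 1 gene and its family are not reported here. The named RDCs were all on chr14, those off chr14 with 20 or more junctions (the 10 highest and 5 lowest ratios), windows called by voom, Ctnna2, Magi2, Lrp1b and Cadm2, family members, and sites with 10 or more junctions within 50 bp. Members, lists and tests were chosen with earlier results of these data known. Alternatives were other totals, window sizes, filters and tests, single libraries left out, 1 sequencing run, positions counted once and replicate numbers as blocks. Leaving out G-run preys, preys next to the break, or translocations by bait loss was added after seeing the data.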

Additional observations from a re-analysis of the deposited data

Results flagged for a closer look

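DMSO replicate 2, the library of 1140 junctions, lay far from the other 3 DMSO libraries in 6 of the 24 results, with a gap to the nearest library above Dixon's critical value for 4 samples. Chance sets 1 library apart in about 1 of 20 groups of 4. It had the highest share of deletions under 200 bp (37.1%, the others 20.3% to 22.2%), of direct joints (41.3%, the others 15.9% to 17.5%) and of insertions among translocations (43.8%, the others 20.8% to 22.3%). It had the lowest share of inversions (1.84%), of the primer side (9.13%) and of joints with 2 bp of micro-homology (10.7%). Of its 137 translocations 26.3% had a G-run prey and 11.7% a prey that read the bases next to the break, and the part of either in these values was not tested. The treatment differences compared between the chr14 and chr8 baits gave exact permutation p-values from 0.446 to 0.940, none under 0.05. The levels of the baits were not tested against each other. Mean bait loss of translocations was 47.4 bases (DMSO) and 53.7 (aphidicolin) with chr14, and 17.7 and 23.6 with chr8.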

How the results depend on the processing

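The 6 class shares other than inversions, the CTR and TTR densities, their ratios to the tiles outside, the chr14 density without Nrg3, and the insertion and long-gene shares kept their direction in all 208 alternative values. Direct joining turned to a difference of 3.53 percentage points without DMSO replicate 2 (range over libraries left out -4.94 to 3.53), 1.52 with insertions in the denominator and 1.64 with at most 30 bases lost. The 2 bp share ranged from -3.69 to 0.927 over libraries left out, and was 0.927 in the replicate block, 0.0987 with chr14 included, 1.51 with insertions in the denominator and 1.07 with over 30 bases lost. The 3 to 4 bp share ranged from -2.63 to 1.73, and was -0.0521 without G-run preys and -0.205 with at most 30 bases lost. The 1 bp share was -2.57 within 1 Mb and -1.65 with at most 30 bases lost. On chr14 beyond 1 Mb the 5 to 10 bp share differed by -0.606 and the near-intact share by 0.0876. Inversions ranged from -0.215 to 0.550, and differed by -0.936 with each position counted once and by 1.38 as a share of junctions within 1 Mb. The density outside RDCs was 0.0415 higher per 1000 of all placed junctions. The bait-loss contrast between the baits ranged from -1.96 to 4.33. For these reversals the cause was not tested.

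Off chr14, calls ranged from 0 to 1 in each direction over libraries left out, with Auts2 called without DMSO replicate 2 (adjusted p = 0.0489, voom). The replicate block gave 5 lower calls off chr14 and 3 on chr14, and the quasi-Poisson test 1 higher off and 1 lower on chr14. On chr14, higher calls ranged from 0 to 3 and lower calls from 0 to 2, the 0 higher without DMSO replicate 3 and the 2 lower without DMSO replicate 1. Pcdh9 lost its call in the replicate block (adjusted p = 0.205), with windows of 2 Mb (0.122) and, with Gpc6, in limma trend (0.0545). The numbers do not pair the libraries: correlations of same-numbered deviations over 601 windows were 0.11, -0.05 and 0.00. Depth limits single windows, and the exact permutation tests of 4 against 3 libraries cannot pass 0.05.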
